A study of Mus musculus with 8 samples.

Results

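The genes described here are 48 genes that cells switch on in response to interferon or use to detect foreign or misplaced nucleic acid, out of 54838 genes in the count table. They were chosen by symbol from a list of RNA sensors, oligoadenylate synthetases, STAT and IRF factors, antiviral effectors and related genes, and all 48 symbols were found. The list was chosen with earlier results of these data known. RNA had been sequenced from sorted mouse AML cells of the genotype RUNX1-RUNX1T1 on a C57BL/6 background, a fusion of transcription factors found in core-binding factor leukaemia, after transplantation into Ptprca recipient mice. There were 4 Vehicle samples and 4 AG636 samples, the second group from mice dosed by oral gavage b.i.d. with 100 mg/kg of AG636, an inhibitor of DHODH, which makes a precursor of the pyrimidine nucleotides. Per the labels the recipients had been irradiated at a sublethal dose, whereas the study's methods name irradiation for its other leukaemia models and not for this one. Per the study's text the cells were sorted for high cKit. The labels name bone marrow and spleen without assigning either to a sample, and they do not say whether each sample came from its own mouse, so p-values measure the spread between these samples. For the RNA sequencing of this model the study's figure legend gives fewer mice in a group than there are samples. Samples may thus share a mouse, and the p-values may then rest on fewer independent mice.

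Interferons are secreted proteins that cells make when sensors such as RIG-I (Ddx58) and MDA5 (Ifih1) bind double-stranded RNA. They act on receptors whose kinases activate STAT factors, and these act with IRF9 in binding interferon-stimulated response elements in the promoters of many genes. Among those targets are the sensors, IRF factors and antiviral effectors themselves, so that the pathway feeds back on itself, and many are also expressed at a basal level without infection.

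Of the 48 genes, 40 had enough counts to be tested, and 11 of these were higher with AG636: the sensors Ddx58, Ifih1 and Dhx58, the synthetase genes Oas2, Oas3 and Oasl2, and Isg15, Trim30a, Sp100, Xaf1 and Ifi27. Trim25, a ubiquitin ligase that acts on RIG-I, was lower. These calls are 27.5% and 2.5% of the 40, against 5.47% higher and 8.49% lower over all genes tested. None of the 6 STAT and IRF factors and partners passed the test. The genes Ifit3, Mx1, Mx2, Rsad2, Cmpk2, Ifi44, Zbp1 and Ddx60, which interferon induces strongly in many cells, had at most 10 counts in any sample and were too low to test.

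The promoters of members that changed are shown to let the response element be seen. Promoter sequences of RefSeq (GRCm38.p6, 250 bases before to 50 bases after a start) were found for 37 of the 48 genes. They were searched on both strands for GAAANNGAA, the repeated core of sites bound by IRF factors, which reads TTCNNTTTC on the other strand. Matches may overlap and lie in runs. Matches are in capitals and the stretches read 5′ to 3′ on the strand of the gene. Oas3 (chr5:120777690-120777764, minus strand) held 2 overlapping matches that began 75 and 69 bases before the start. Trim30a (chr7:104465194-104465258, minus strand) held 1 that began 35 bases before it. Isg15 (chr4:156200846-156200926, minus strand) held 3 overlapping matches, the first 78 bases before it. Trim25 (chr11:88999364-88999402, plus strand) held 1 that began 9 bases before a start that lies 27 bases from the gene start of the count table. Ifih1 (chr2:62646329-62646397, minus strand) held 1 that began 112 bases before it and another, not shown, after it. Ddx58 (chr4:40239804-40239832, minus strand) held 1 that began at base 4 of the transcript.
Oas3: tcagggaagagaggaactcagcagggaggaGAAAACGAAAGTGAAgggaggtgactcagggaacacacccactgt
Trim30a: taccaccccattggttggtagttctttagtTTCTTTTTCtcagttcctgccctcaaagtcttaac
Isg15: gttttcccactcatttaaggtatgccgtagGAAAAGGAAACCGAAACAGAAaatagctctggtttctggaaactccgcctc
Trim25: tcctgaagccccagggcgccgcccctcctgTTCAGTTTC
Ifih1: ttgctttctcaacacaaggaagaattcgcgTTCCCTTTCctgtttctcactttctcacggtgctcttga
Ddx58: ctgaggcagtTTCGATTTCctatggccag

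Trim25, the member that was lower, thus held the same letters as members that were higher. At least 1 match was found for 18 of the 37 genes with a promoter (48.6%), against 9.76% of the 27025 genes in the whole table. The share was 5 of 8 among members called higher, 8 of 23 among those tested and not called, and 4 of 5 among those too low to test. No match was found within these windows for Oasl2, Sp100 and Xaf1, which were higher. The STAT-type letters TTCNNNGAA, which are their own reverse complement, were found in 10 of the 37 genes against 9.55% of all genes with a promoter, and all 10 were tested and not called. These shares describe letters in short windows and are not a measure of binding.

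Libraries were made with a QuantSeq 3′ kit, which reads the end of each transcript, and held between 6120030 and 7162036 counts, with 16141 to 18049 genes detected. Expression is given as counts scaled to a common library size (CPM), a relative level not divided by gene length. The groups were compared by limma-voom over 10911 genes with Benjamini-Hochberg adjustment at a threshold of 0.05, and the log2 fold change is given with its SE. Of all genes tested 597 were higher (5.47%) and 926 were lower (8.49%). By limma-voom an unadjusted p of 0.0498, that of Myb, went with an adjusted p of 0.163. An unadjusted p under 0.05 was thus common over all genes, and counts of such p below are given without that share. With library size alone in place of TMM factors the split was 918 higher and 571 lower, and the median of all genes moved from -0.0056 to 0.064 on the log2 scale. Of 8 markers of immature leukaemic cells, Kit (153 to 252 CPM) and Myb (388 to 717 CPM) were abundant, Cd34 ranged from 2.43 to 12.6 CPM in Vehicle and stood at 4.51, 5.11, 35.6 and 4.05 CPM in AG636 samples, Mpo, Elane, Ctsg and Prtn3 stayed under 5 CPM and Flt3 under 1 CPM, while the erythroid factor gene Gata1 lay between 196 and 266 CPM. Markers of other cells moved with the groups in part. The summed level of 8 B cell markers was 18.4 to 42.0 CPM in Vehicle and 28.4 to 114.0 CPM in AG636 samples, and Cd79a, a part of the B cell receptor, was higher (0.291 to 1.06 against 1.596 to 3.18 CPM, log2 fold change 1.83 ± 0.47, adjusted p = 0.0266). Cd79a reached the cutoff of the filter on low counts in no Vehicle sample and in all 4 AG636 samples, so that it was tested only through the group in which it is high. Of the 6 B cell markers tested limma-voom and edgeR called 1 and DESeq2 2. The summed level of 9 neutrophil markers was 44.4 to 104.4 CPM in Vehicle and 16.2, 164.1, 22.5 and 204.8 CPM in AG636 samples 1 to 4, with none of 5 tested called by limma-voom, edgeR or DESeq2. That of 10 T and NK cell markers was 5.93 to 11.1 against 6.70 to 21.4 CPM and that of 9 monocyte and macrophage markers 15.6 to 22.4 against 18.2 to 29.9 CPM. Only 2 and 3 of these were tested, with none called by these tools, and the rest were too low to test. Of the 3 monocyte and macrophage markers Csf1r was higher in every AG636 sample than in every Vehicle sample (log2 fold change 0.88 ± 0.40, adjusted p = 0.159). The groups overlapped in the other 2. The plasmacytoid dendritic cell list, a cell type that makes much interferon, summed to 5.57 to 8.76 against 6.70 to 10.3 CPM, and its defining gene Siglech did not exceed 0.319 CPM. The 8 erythroid markers summed to 2288 to 5739 against 4492 to 5738 CPM, with the globin gene Hbb-bt called higher (log2 fold change 0.90 ± 0.22, adjusted p = 0.0238), and the 6 megakaryocyte and platelet markers to 14.0 to 18.1 against 13.4 to 62.9 CPM, of which limma-voom called 0 of 2 tested and edgeR and DESeq2 each 1. The part of these cells in the results below was not tested, and in bulk RNA more RNA per cell and more cells of a type cannot be told apart.

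Read against all genes, the members were called higher in 11 of 40 cases (27.5%, against 5.47% of all genes tested). They were called lower in 1 (2.50%, against 8.49%). In 12 of the 40 every AG636 sample lay above every Vehicle sample (against 9.35% of all genes tested), and in 1, Trim25, every AG636 sample lay below (2.50%, against 12.9%). The log2 fold change was above 0 in 33 and below 0 in 7, with a median of 0.33 against -0.0056 over all genes tested. The cutoff of the filter on low counts was reached by 37 of the 40 in all 4 Vehicle samples, whereas Oasl2 reached it in no Vehicle sample and passed through the AG636 samples. In a fit without the filter, all 48 members had a median of 0.33, with 39 above 0 and 9 below, and the median of all genes was 0.033. Since the list was chosen with earlier results of these data known, these shares and medians describe it and are not a test.

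**Figure D1:**
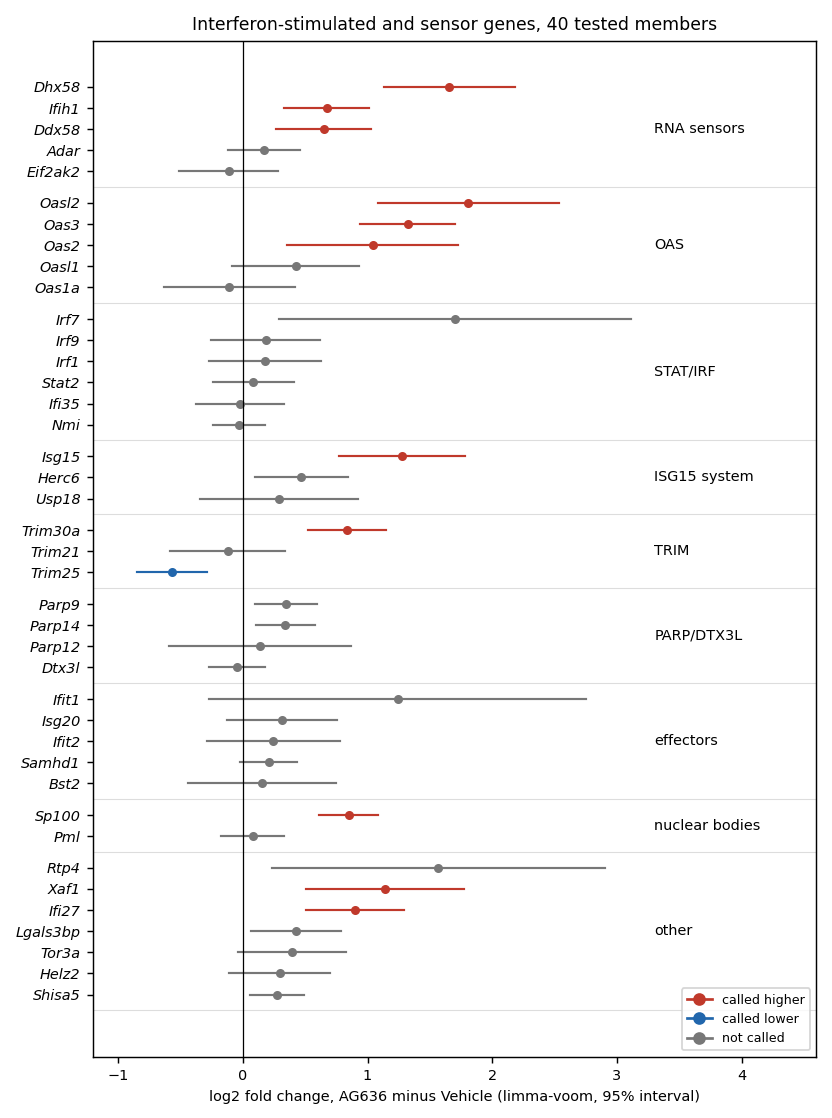
Log2 fold change, AG636 minus Vehicle, of the 40 tested genes (dots) with the 95% interval of limma-voom (lines), grouped by role, with genes called higher in red, lower in blue and the others in grey. The 11 red genes fall in 6 of the 9 role groups, and the STAT and IRF group holds none.

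Of the RNA sensors 3 of 5 tested were higher, and these were the RIG-I-like receptors. Dhx58 (LGP2), a helicase that tunes signalling by the other RIG-I-like receptors, stood at 4.08, 4.15, 4.64 and 2.59 CPM in Vehicle samples 1 to 4 and at 11.4, 15.6, 10.4 and 11.6 CPM in AG636 samples 1 to 4. Its lowest AG636 sample was more than 2 times its highest Vehicle sample, and the log2 fold change was 1.66 ± 0.24 (adjusted p = 0.00291). Ifih1 (MDA5), which senses long double-stranded RNA, stood at 21.9, 24.3, 21.0 and 18.7 CPM in Vehicle and at 36.7, 39.6, 25.7 and 36.1 CPM in AG636 samples. The groups did not overlap, but AG636 sample 3 lay just above the Vehicle range (log2 fold change 0.67 ± 0.15, adjusted p = 0.0177). The call was lost without Vehicle sample 1 (adjusted p = 0.0507) or Vehicle sample 3 (adjusted p = 0.0594). Ddx58 (RIG-I), which senses RNA with a triphosphate end, stood at 18.8, 12.4, 12.7 and 12.02 CPM in Vehicle and at 18.04, 25.4, 22.2 and 21.7 CPM in AG636 samples. Vehicle sample 1 was high and reached above AG636 sample 1, and the log2 fold change was 0.65 ± 0.17 (adjusted p = 0.0321). This call was lost when Vehicle sample 2, 3 or 4 or AG636 sample 2 was left out (adjusted p up to 0.100), and without the filter on low counts (adjusted p = 0.0588).

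The sensors that act on translation or edit RNA did not pass the test. Eif2ak2 (PKR), the kinase that stops translation on binding double-stranded RNA, stood at 28.7, 23.5, 24.4 and 30.7 CPM in Vehicle and at 28.3, 28.3, 16.6 and 27.8 CPM in AG636 samples. AG636 sample 3 was the lowest of all 8 samples and the other AG636 samples lay within the Vehicle range (log2 fold change -0.11 ± 0.18, adjusted p = 0.716). Adar, which edits adenosine in double-stranded RNA and thereby hides it from MDA5, stood at 30.7, 25.8, 31.4 and 36.4 CPM in Vehicle and at 34.8, 39.7, 29.5 and 35.3 CPM in AG636 samples. The groups overlapped over most of their range (log2 fold change 0.17 ± 0.13, adjusted p = 0.424, 95% interval -0.12 to 0.46). Reads of Eif2ak2 and of the antisense gene Gm26637 cannot be told apart if strand was not used in counting. Zbp1, a sensor of Z-form nucleic acid, had at most 1 count in any sample and Ddx60, a helicase linked to RIG-I, at most 10.

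The OAS genes encode synthetases that make oligoadenylates in response to double-stranded RNA and thereby activate RNase L, and 3 of 5 were higher. Oas3 stood at 12.2, 10.5, 9.90 and 13.5 CPM in Vehicle and at 22.5, 33.0, 28.6 and 32.1 CPM in AG636 samples. All AG636 samples lay well above all Vehicle samples (log2 fold change 1.32 ± 0.17, adjusted p = 0.00214). Oasl2, an OAS-like gene of low level, stood at 1.02, 0.615, 1.08 and 1.06 CPM in Vehicle and at 3.58, 4.15, 2.55 and 3.61 CPM in AG636 samples. The log2 fold change was 1.81 ± 0.33 (adjusted p = 0.00704), on at most 26 counts in a sample. Oasl2 was tested only through the AG636 samples, since no Vehicle sample reached the cutoff of the filter, and its call and size are subject to that choice. Oas2 stood at 7.58, 4.76, 3.87 and 8.67 CPM in Vehicle and at 13.4, 15.8, 7.50 and 14.2 CPM in AG636 samples. AG636 sample 3 lay inside the Vehicle range, and the log2 fold change of 1.04 ± 0.31 was close to the threshold (adjusted p = 0.0482). Leaving out any 1 sample other than AG636 sample 3 ended this call, with adjusted p up to 0.146, as did leaving out the filter (adjusted p = 0.0661).

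The other OAS genes did not pass the test. Oas1a stood at 7.87, 6.15, 5.88 and 7.91 CPM in Vehicle and at 5.29, 9.74, 6.38 and 5.20 CPM in AG636 samples. AG636 samples 1 and 4 were the lowest of all 8 and AG636 sample 2 the highest (log2 fold change -0.11 ± 0.24, adjusted p = 0.797). Oasl1, which holds back translation of Irf7 mRNA, stood at 13.4, 9.99, 10.4 and 14.8 CPM in Vehicle and at 17.9, 21.2, 10.4 and 16.9 CPM in AG636 samples. AG636 samples 1, 2 and 4 lay above the Vehicle range and AG636 sample 3 near its lower end (log2 fold change 0.42 ± 0.23, adjusted p = 0.241). Oas2, Oas3 and Oas1a lie in 1 cluster on chr5:120730333-120907521 and Oasl2 and Oasl1 on chr5:114896936-114937915 (GRCm38), and in each cluster calls were mixed. OAS genes resemble each other in sequence, and how reads with several matches were counted is not given in the sources used here.

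The STAT and IRF factors and their partners showed no call among 6 genes tested by limma-voom, edgeR or DESeq2, and 1 of them, Irf7, had an unadjusted p under 0.05. Stat2, a factor activated at the interferon receptor, stood at 14.0, 17.98, 16.7 and 17.5 CPM in Vehicle and at 19.6, 19.6, 16.3 and 14.9 CPM in AG636 samples (log2 fold change 0.084 ± 0.15, adjusted p = 0.742). Irf9, a DNA-binding partner of STAT factors, stood at 64.2, 58.6, 67.6 and 77.3 CPM in Vehicle and at 74.2, 114.8, 51.9 and 74.3 CPM in AG636 samples. AG636 sample 2 was the highest of all 8 samples and AG636 sample 3 the lowest (log2 fold change 0.18 ± 0.20, adjusted p = 0.572). Exons of Irf9 (3802 counts in all) overlap in position with those of the same-strand gene Rnf31 (373 counts). Reads in the shared part cannot be told apart by strand. Irf1, a factor that interferon gamma induces, stood at 5.68, 6.30, 5.73 and 5.32 CPM in Vehicle and at 4.98, 6.23, 7.66 and 7.52 CPM in AG636 samples (log2 fold change 0.18 ± 0.20, adjusted p = 0.597).

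Irf7, the factor that amplifies interferon production, varied widely within each group. It stood at 1.89, 3.07, 4.18 and 10.5 CPM in Vehicle and at 12.1, 28.4, 4.79 and 17.5 CPM in AG636 samples. AG636 samples 1, 2 and 4 lay above all Vehicle samples and AG636 sample 3 lay among them, and Vehicle sample 4 was the highest of its group. The log2 fold change of 1.70 had an SE of 0.64 and a 95% interval of 0.29 to 3.11 and did not pass the test (adjusted p = 0.100). Without AG636 sample 3 it was 2.16 (adjusted p = 0.0139), and in the other 7 fits that each left out a sample the adjusted p was 0.0965 to 0.244. AG636 sample 3 is the low sample, so its removal can only raise the difference and is no support for it. Reads of Irf7 (536 counts in all) overlap in position with the opposite-strand gene Phrf1 (4192 counts) and may be shared with it if strand was not used. Nmi and Ifi35, which encode partner proteins that bind each other, were level. Nmi stood at 38.6, 38.3, 41.3 and 40.01 CPM in Vehicle and at 43.7, 36.9, 37.5 and 37.3 CPM in AG636 samples (log2 fold change -0.029 ± 0.095, adjusted p = 0.868). Ifi35 stood at 21.4, 23.7, 22.3 and 24.2 CPM in Vehicle and at 16.0, 23.6, 27.0 and 25.2 CPM in AG636 samples (log2 fold change -0.021 ± 0.16, adjusted p = 0.947). For Nmi the 95% interval, -0.24 to 0.18, bounds a change in either direction to less than that of any called member.

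Whether the sensor list and the STAT and IRF list respond differently was not tested. Summed over 7 sensor genes the level was 104.3, 91.0, 95.01 and 100.6 CPM in Vehicle and 130.8, 149.2, 105.0 and 133.8 CPM in AG636 samples, so every AG636 sample was above every Vehicle sample, AG636 sample 3 by less than 1 CPM. Summed over the 5 OAS genes it was 42.1, 32.0, 31.1 and 45.9 CPM against 62.7, 84.0, 55.4 and 72.0 CPM, again without overlap. Summed over the 6 STAT and IRF genes it was 145.8, 147.9, 157.8 and 174.8 CPM against 170.6, 229.5, 145.1 and 176.6 CPM, with AG636 sample 3 the lowest of all 8. Summed over the 10 antiviral effectors it was 175.1, 169.4, 184.8 and 153.5 CPM against 182.6, 191.5, 205.2 and 242.8 CPM, where AG636 sample 1 lay inside the Vehicle range. These sums are set by the most abundant genes, Irf9 among the factors and Samhd1 among the effectors.

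**Figure D2:**
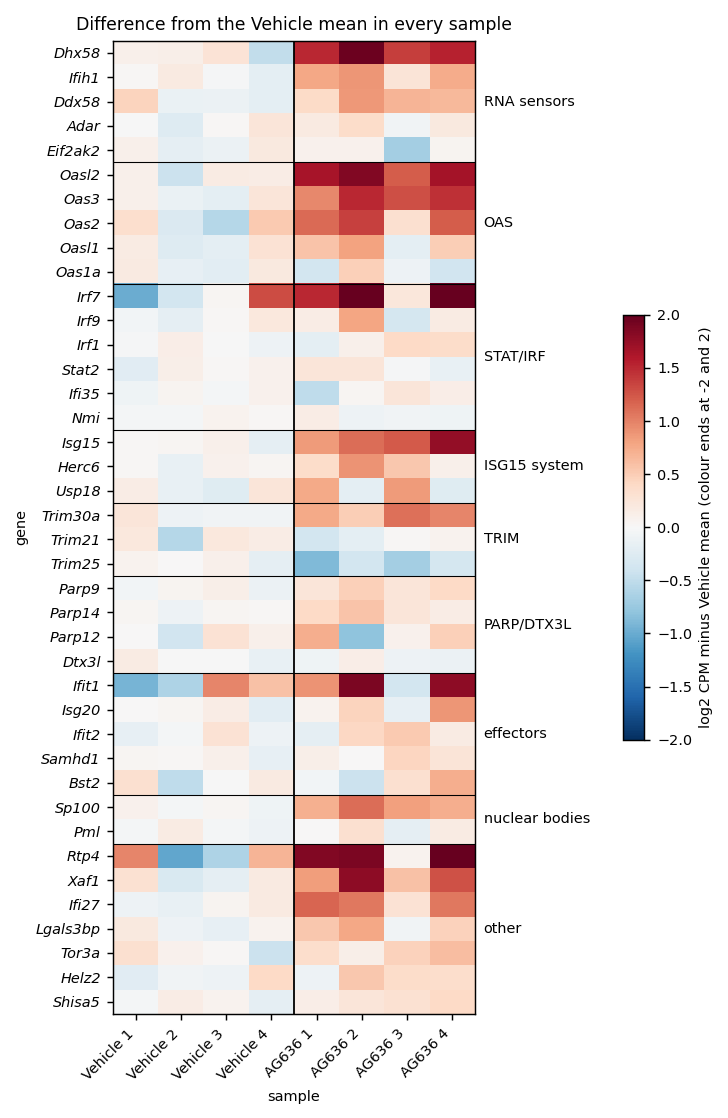
Log2 CPM of the 40 tested genes in every sample minus the mean of the 4 Vehicle samples, grouped by role, with colours ending at -2 and 2. AG636 sample 2 is the highest AG636 sample in 22 of the 40 genes and AG636 sample 3 the lowest in 17.

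Of the ISG15 system, Isg15 was higher. Isg15, a ubiquitin-like protein that is attached to others, stood at 6.85, 6.92, 7.27 and 5.93 CPM in Vehicle and at 12.4, 15.0, 16.1 and 23.4 CPM in AG636 samples. The Vehicle samples lay close together and all AG636 samples lay well above them (log2 fold change 1.28 ± 0.23, adjusted p = 0.00634). Herc6, the main ligase that attaches ISG15 in mice, stood at 20.0, 17.5, 20.7 and 20.1 CPM in Vehicle and at 25.2, 36.6, 28.4 and 21.0 CPM in AG636 samples. The groups did not overlap, AG636 sample 4 being just above the Vehicle range, yet the log2 fold change of 0.47 ± 0.17 did not pass (adjusted p = 0.0887). With DESeq2 it passed (adjusted p = 0.0350). Usp18, which removes ISG15 and restrains the interferon receptor, ranged from 6.50 to 9.13 CPM in Vehicle and from 6.50 to 14.2 CPM in AG636 samples (log2 fold change 0.29 ± 0.29, adjusted p = 0.537).

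The TRIM genes went in opposite directions. Trim30a, a mouse TRIM protein that restrains inflammatory signalling, stood at 48.2, 38.1, 38.8 and 39.1 CPM in Vehicle and at 69.7, 57.6, 87.9 and 81.1 CPM in AG636 samples. The groups did not overlap (log2 fold change 0.84 ± 0.14, adjusted p = 0.00531). Trim25 stood at 100.1, 95.6, 102.3 and 84.6 CPM in Vehicle and at 51.8, 74.1, 59.7 and 74.4 CPM in AG636 samples. All AG636 samples lay below all Vehicle samples, and Trim25 fell by 0.57 on the log2 scale (SE 0.13, adjusted p = 0.0152), a call lost without Vehicle sample 3 (adjusted p = 0.055). Trim21, a receptor for antibodies inside the cell, ranged from 7.99 to 13.9 CPM in Vehicle and from 9.18 to 12.6 CPM in AG636 samples (adjusted p = 0.737). Trim30a has near relatives next to it in the genome, with which its reads may be shared.

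Of Sp100 and Pml, scaffold proteins of the same nuclear bodies, Sp100 was higher, and the difference between the genes was not tested. Sp100 stood at 60.9, 55.5, 58.8 and 53.6 CPM in Vehicle and at 94.1, 124.5, 101.3 and 94.97 CPM in AG636 samples. It had the smallest p of the 40 members, with a wide gap between the groups (log2 fold change 0.85 ± 0.11, adjusted p = 0.00194). Pml stood at 97.0, 111.7, 97.2 and 92.7 CPM in Vehicle and at 100.0, 124.3, 87.4 and 111.3 CPM in AG636 samples, groups that overlapped (log2 fold change 0.078 ± 0.11, adjusted p = 0.688, 95% interval -0.17 to 0.33).

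Among the other interferon-stimulated genes 2 of 7 tested were higher. Ifi27, a small membrane protein, stood at 76.5, 74.1, 85.6 and 93.4 CPM in Vehicle and at 184.8, 171.3, 100.7 and 170.6 CPM in AG636 samples. AG636 sample 3 lay just above the Vehicle range and the other AG636 samples far above it (log2 fold change 0.90 ± 0.18, adjusted p = 0.00981). Xaf1, which promotes apoptosis, stood at 9.03, 5.84, 6.34 and 8.22 CPM in Vehicle and at 13.2, 25.7, 11.0 and 17.9 CPM in AG636 samples, without overlap (log2 fold change 1.14 ± 0.29, adjusted p = 0.0257). That call was lost when any of the Vehicle samples was left out (adjusted p 0.0504 to 0.0831). Rtp4, Shisa5, Lgals3bp, Helz2 and Tor3a had log2 fold changes of 0.27 to 1.57 and did not pass with limma-voom or edgeR, while DESeq2 called Rtp4 (adjusted p = 0.0185) and Lgals3bp (adjusted p = 0.0439) and library size alone called Shisa5 (adjusted p = 0.0473), and Ifi44 had at most 8 counts.

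**Figure D3:**
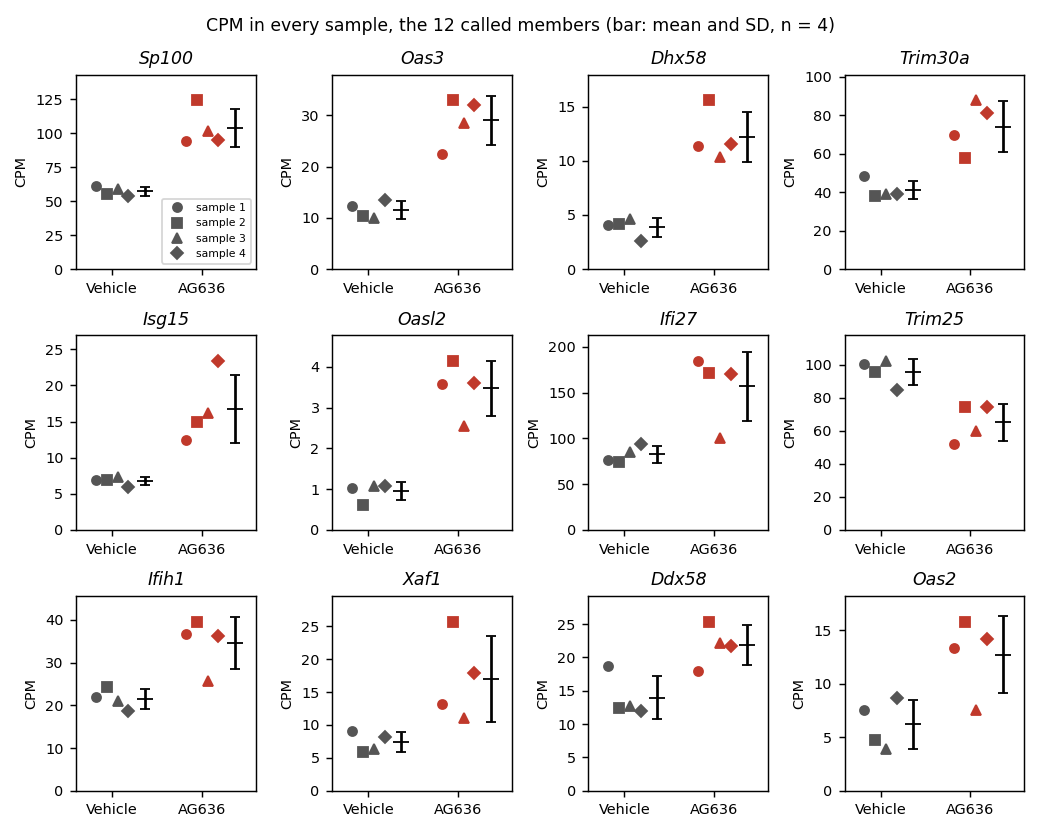
CPM of the 12 called genes in every sample, in order of p, with grey for Vehicle, red for AG636, symbols for sample numbers and bars for the mean and SD (n = 4). In 9 of the 11 higher genes the groups do not overlap, whereas Ddx58 of Vehicle sample 1 (18.8 CPM) reaches above AG636 sample 1 (18.04 CPM) and Oas2 of AG636 sample 3 (7.50 CPM) lies below Vehicle sample 4 (8.67 CPM). Over all genes tested, every AG636 sample lay above every Vehicle sample in 9.35%. The genes shown were called on these same values, so their lack of overlap is a description and adds no support.

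The antiviral effectors, proteins that act on viral nucleic acid or particles, gave no call among 5 genes tested by limma-voom, edgeR or DESeq2, and 0 of them had an unadjusted p under 0.05. Samhd1, which breaks down deoxynucleotides and so ties antiviral defence to the nucleotide pool, stood at 109.7, 108.8, 113.9 and 94.6 CPM in Vehicle and at 116.0, 107.6, 143.0 and 127.5 CPM in AG636 samples. AG636 samples 1, 3 and 4 lay above the Vehicle range (log2 fold change 0.21 ± 0.10, adjusted p = 0.209). Isg20, an exonuclease, Ifit2, an RNA-binding protein, and Bst2 (tetherin), which holds virus particles at the membrane, had log2 fold changes of 0.32, 0.24 and 0.15 with adjusted p of 0.311, 0.540 and 0.746. Ifit1 was higher on the log2 scale by 1.24 with an SE of 0.69 (adjusted p = 0.248), at 0.437 to 2.48 CPM in Vehicle and 0.798 to 4.95 CPM in AG636 samples. The remaining 5 of the 10 effectors were too low to test: Ifit3, Mx1 and Mx2 had at most 2, 2 and 3 counts in any sample, and Rsad2 (viperin) and Cmpk2 at most 8 and 6. A change in these genes was not detectable at this depth.

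The genes for ADP-ribosylation, which attach ADP-ribose to proteins, gave 0 calls in 4 genes by limma-voom or edgeR and 1 by DESeq2, and 2 had an unadjusted p under 0.05. In these 2, Parp9 and Parp14, all AG636 samples lay above all Vehicle samples. Parp14 stood at 45.5, 41.5, 45.6 and 44.9 CPM in Vehicle and at 58.6, 65.9, 52.5 and 49.1 CPM in AG636 samples (log2 fold change 0.34 ± 0.11, adjusted p = 0.0594). Parp9 gave 0.35 ± 0.11 (adjusted p = 0.0648), with 19.6 to 23.1 CPM in Vehicle and 25.2 to 29.7 CPM in AG636 samples, while its partner and overlapping neighbour Dtx3l gave -0.045 ± 0.10 (adjusted p = 0.805). Parp14 passed with DESeq2 (adjusted p = 0.0255) and both Parp genes passed with library size alone (adjusted p = 0.0257 for Parp14 and 0.0347 for Parp9). Parp12 ranged from 4.15 to 6.81 CPM in Vehicle and from 3.03 to 9.33 CPM in AG636 samples (adjusted p = 0.820).

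Position within the group of AG636 samples differed between members. Relative to the Vehicle range, AG636 samples 1 to 4 lay above it in 23, 28, 20 and 27 of the 40 members, against 31.5%, 34.3%, 32.0% and 28.2% of all genes tested. AG636 sample 3 was the lowest AG636 sample in 42.5% of members, against 25.6% of all genes tested, and AG636 sample 2 the highest in 55.0%, against 28.3%. In 9 members exactly 3 AG636 samples lay above all Vehicle samples. The sample that did not was AG636 sample 3 in 5 of these (12.5% of members, against 3.79% of all genes tested). It was AG636 sample 1 in Ddx58 and Shisa5 (5.0%, against 1.998%) and AG636 sample 2 in Samhd1 and Tor3a (5.0%, against 2.47%). AG636 sample 4 was the exception in 0 members, against 3.45% of all genes tested. Each share of all genes counts those with the same sample as the exception. The 5 members with AG636 sample 3 as the exception were Oas2, Oasl1, Irf7, Rtp4 and Lgals3bp, singled out after their values had been seen. Rtp4, a chaperone of receptors, stood at 7.14, 1.54, 2.17 and 5.78 CPM in Vehicle and at 13.4, 13.7, 3.67 and 16.8 CPM in AG636 samples. Its log2 fold change was 1.57 ± 0.61 (adjusted p = 0.108), and 2.04 (adjusted p = 0.00885) without AG636 sample 3, against adjusted p of 0.128 to 0.254 when another sample was left out. Lgals3bp, a secreted glycoprotein, gave 0.43 ± 0.16 (adjusted p = 0.108), and 0.59 (adjusted p = 0.0108) without that sample, against 0.133 to 0.251 when another was left out. These genes were singled out for the low value of AG636 sample 3, so their values without it are a description. In AG636 sample 3 the summed B cell markers (28.4 CPM) were the lowest of the AG636 group. The summed level of the 48 members was also lowest there (1335 CPM, against 1458, 1678 and 1589 CPM in AG636 samples 1, 2 and 4). In Vehicle samples the members summed to 1132 to 1199 CPM. The other AG636 samples did not keep the same order in both sums. AG636 sample 1 had the highest B cell sum (114.0 CPM) but the lowest member sum of these. AG636 sample 2 had the highest member sum but a lower B cell sum than AG636 samples 1 and 4. The part of B cells in this was not tested. AG636 sample 3 also stood apart in other markers, with the highest Kit (252 CPM), Cd34 (35.6 CPM) and summed megakaryocyte and platelet markers (62.9 CPM) of all 8 samples. It also had the highest Nkg7 (17.7 CPM, against 0.304 to 8.01 CPM in the others), a gene of the T and NK cell list. The rest of that list did not follow Nkg7 there. Cd3e (0.479 CPM) and Trbc2 (1.28 CPM) were the lowest of the AG636 group, and the remaining genes of the list stayed under 1 CPM. The part of these cells was not tested either.

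**Figure D4:**
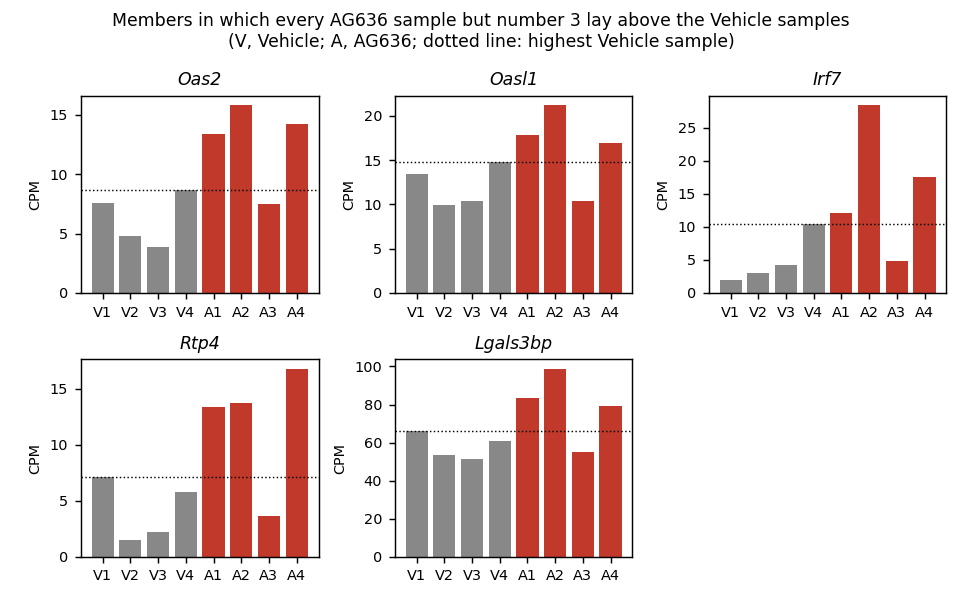
CPM (bars) in Vehicle samples V1 to V4 (grey) and AG636 samples A1 to A4 (red) of the 5 genes in which A1, A2 and A4 lay above the highest Vehicle sample (dotted line) and A3 did not. Irf7 stood at 4.79 CPM in A3, against 12.1 to 28.4 CPM in the other AG636 samples and 1.89 to 10.5 CPM in Vehicle samples.

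Other genes of the pathway were read from lists of 80 genes, of which 79 were in the table and 46 were tested. Of these 4 were called higher (8.70%, against 5.47% of all genes tested) and 1 lower (2.17%, against 8.49%). The share called higher is thus near that of all genes. In 10 of the 46 every AG636 sample lay above every Vehicle sample (21.7%, against 9.35% of all genes tested). In 4 every AG636 sample lay below every Vehicle sample (against 12.9% of all genes tested). The median log2 fold change was 0.16, with 30 above 0 and 16 below. The 10 genes for interferons (among them Ifnb1 and Ifng) had 0 counts in every sample, which allows up to 3 counts or 0.434 to 0.479 CPM in a sample, by counting error only. None of 11 receptor and kinase genes passed, while 3 had an unadjusted p under 0.05 and edgeR and DESeq2 each called 1. An unadjusted p under 0.05 was common over all genes, so that count is not read as a change. The receptor gene Ifnar1 stood at 10.8, 9.68, 8.67 and 12.6 CPM in Vehicle and at 10.6, 13.2, 9.89 and 8.82 CPM in AG636 samples (adjusted p = 0.961), and Ifnar2 at 38.9, 44.0, 43.3 and 42.0 CPM against 40.3, 48.7, 36.1 and 43.2 CPM (adjusted p = 0.982).

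Among adaptors and sensors of DNA, 1 of 14 tested was lower, while 5 had an unadjusted p under 0.05 and DESeq2 called 2. The lower gene was Mb21d1 (cGAS), the enzyme that makes a second messenger on binding DNA, at 67.0, 61.8, 60.2 and 64.7 CPM in Vehicle and 39.8, 39.1, 51.7 and 44.95 CPM in AG636 samples. It fell by 0.54 on the log2 scale (SE 0.11, adjusted p = 0.00922), without overlap. Of 6 negative regulators Irf2, which competes with IRF1 for its sites, was higher, at 81.6, 77.3, 70.1 and 73.2 CPM in Vehicle and 102.6, 137.4, 111.7 and 116.2 CPM in AG636 samples (log2 fold change 0.62 ± 0.10, adjusted p = 0.00481). Of 8 interferon-inducible GTPases, which attack the vacuoles of intracellular microbes, 2 were higher. In this list 5 had an unadjusted p under 0.05, and edgeR and DESeq2 each called 3. Here and for the adaptors, counts of unadjusted p under 0.05 are not read as changes, since such p were common over all genes. Gbp2 stood at 4.22, 3.07, 1.70 and 1.22 CPM in Vehicle and at 5.91, 6.70, 8.46 and 7.23 CPM in AG636 samples (log2 fold change 1.58 ± 0.34, adjusted p = 0.0133). Gbp5 stood at 4.08, 3.53, 3.56 and 2.74 CPM in Vehicle and at 5.13, 11.7, 7.50 and 8.53 CPM in AG636 samples (log2 fold change 1.17 ± 0.29, adjusted p = 0.0250). Of 3 genes of the Ifi200 family tested Mndal was higher, at 3.06, 2.61, 2.63 and 2.89 CPM in Vehicle and 6.998, 6.23, 4.47 and 8.38 CPM in AG636 samples (log2 fold change 1.17 ± 0.26, adjusted p = 0.0160), and it shares exon sequence with its neighbour Ifi203. Of these 3 genes edgeR and DESeq2 each called 2. Of the IFITM and Ly6 genes none of 4 tested passed by limma-voom, edgeR or DESeq2, and 0 had an unadjusted p under 0.05.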

How the data were processed

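RNA of 4 Vehicle and 4 AG636 samples was sequenced with a QuantSeq 3′ kit. The authors removed reads of low quality, trimmed reads with cutadapt, mapped them to mm10 (GRCm38) with HISAT2 and counted reads in genes by featureCounts of Subread. The submitters' processing notes name cutadapt 1.9.1, HISAT2 2.0.4 and Subread 1.5.0-p3, and the study's methods give other versions of cutadapt and Subread. Use of strand and of reads with several matches is not given in the sources used here. The deposited values are raw counts per gene, and 115 genes had no symbol. Samples were grouped by title.

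Genes passed filterByExpr (minimum count 10), TMM factors scaled the libraries, and the groups were compared by limma-voom, which the study's methods name (limma 3.58.1, edgeR 4.0.16, R 4.3.3), two-sided, with Benjamini-Hochberg adjustment over 10911 genes and a threshold of 0.05. Log2 CPM used a prior count of 2. The fit was tested on simulated data. The members, role lists and marker lists were chosen with earlier results of these data known. Values in every sample are given for called members, for sensors, OAS, STAT and IRF genes, for the most abundant member and that with the smallest p of each other role, and for Ifnar1, Ifnar2 and called genes of the pathway lists. Promoters are shown for at most 6 called members with a match, in order of p. Alternatives were DESeq2 (1.42.0), limma-trend, the quasi-likelihood test of edgeR, no scaling beyond library size, RLE factors, at least 10 counts in all samples, the unfiltered table, a threshold of 0.01, a block for the replicate number, and fits without 1 sample. No 2 samples agreed within sampling noise. A gene of the pathway lists is not reported here.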

Additional observations from a re-analysis of the deposited data

Results flagged for a closer look

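In each group of 4 samples, the sample at either end was compared with its nearest neighbour for every tested member and for the mean level of each role list and of all tested members, and 9 of 100 such groups held a sample that stood apart by Dixon's criterion, where chance gives about 5. All values are log2 CPM. Of the RNA sensors, Ddx58 stood at 4.26 in Vehicle sample 1, while the other Vehicle samples lay at 3.62 to 3.70. Eif2ak2 stood at 4.08 in AG636 sample 3, against 4.81 to 4.84 in the other AG636 samples. Of the OAS family, Oasl2 stood at -0.12 in Vehicle sample 2, against 0.41 to 0.47, on few counts. Nmi stood at 5.46 in AG636 sample 1, against 5.22 to 5.24.

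Of the ubiquitin ligases, Trim21 stood at 3.05 in Vehicle sample 2, against 3.76 to 3.83, and Trim30a at 5.601 in Vehicle sample 1, against 5.26 to 5.30, still below all AG636 samples. Dtx3l stood at 5.74 in AG636 sample 2, against 5.49 to 5.53. Rtp4 stood at 1.99 in AG636 sample 3, against 3.77 to 4.09, and Ifi27 at 6.66 in the same sample, against 7.42 to 7.53. AG636 sample 3 thus gave 3 of the 9, all at the low end of its group, and the cause was not tested.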

How the results depend on the processing

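Over all genes, DESeq2 called 955 higher, library size alone 918 higher and 571 lower, and a threshold of 0.01 left 435 called, 140 higher and 295 lower. Leaving out each sample in turn gave 688 to 1706 genes called, 221 to 769 higher and 467 to 937 lower. Of the members, 7 to 16 were called higher and 0 to 1 lower when a sample was left out, with the fewest without Vehicle sample 3 and the most without AG636 sample 3, and a threshold of 0.01 left 7 higher and 0 lower. Dhx58, Oas3, Oasl2, Isg15, Trim30a, Sp100 and Ifi27 were called in every alternative fit that gave them a value, at the threshold of 0.05. Ddx58, Ifih1, Oas2, Xaf1 and Trim25 were lost in at least 1, and 9 of the 28 members not called were called in at least 1. No called member changed sign, while 9 members not called did. The members' median log2 fold change stayed between 0.30 and 0.40. Fewer samples give less power, and other causes were not tested.

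No pairing of the samples by replicate number was seen. Deviations of same-numbered samples correlated at -0.14, 0.014, 0.20 and 0.14, and only 1 of 4 numbers matched itself best. Since the best matches between groups were also weak (0.11 to 0.25), this does not exclude a pairing. With the replicate number as a block 1446 genes were called, 616 of them higher, Ddx58 was lost (adjusted p = 0.0699) and Rtp4 gained (adjusted p = 0.0289). At this depth 8 of the 48 members were too low to test.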
